A study of Mus musculus with 23 samples.

Results

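The genes described here are 42 genes of the autophagy and mitophagy machinery, whose mRNA was measured by bulk sequencing of quadriceps muscle from mice of both sexes. They were taken from a fixed list by gene symbol, and each symbol matched 1 of the 55573 gene IDs in the count table. All 42 passed the filter on low counts that left 13049 genes for testing, and the lowest count of any of them in any mouse was 107. The mice were of strain C57Bl6 (C57BL/6J in the methods) and 8 to 10 weeks old. Each carried a slow-release pellet under the skin for 14 days and was fasted for 5 hours before the muscle was taken. The corticosterone pellet held 50 mg corticosterone with 50 mg cholesterol, and the vehicle pellet held 100 mg cholesterol. There were 6 vehicle-treated males, 6 corticosterone-treated males, 6 vehicle-treated females and 5 corticosterone-treated females. Corticosterone is the main glucocorticoid of the mouse.

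In autophagy a membrane grows around cytoplasm, closes to form an autophagosome and fuses with a lysosome, where its content is broken down. A kinase complex starts the process, a lipid kinase complex marks the site, conjugation enzymes attach small ubiquitin-like proteins of the LC3 and GABARAP families to the membrane, and receptors link cargo to them. In muscle, autophagy removes damaged mitochondria (mitophagy) and proteins, and it is known to be active during fasting and atrophy.

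Gene counts per mouse ranged from 20904150 to 21984477, and values are given below in CPM (counts scaled to an equal total in every mouse, with TMM factors), as the lowest, median and highest for groups of 6 and, for treated females, in the order F2, F4, F6, F8, F10. The summed CPM of 5 myofiber markers was 53780 in F10, 75540 in F6 and 87960 to 163600 in the other mice. That of 5 lymphocyte markers was at most 3.44. Of 4 glucocorticoid-responsive genes, 4 were higher with corticosterone in males and 1, Fkbp5, was higher in females. Females F2, F6 and F10, all corticosterone-treated, stood apart. They had 3496, 4618 and 4015 low-quality alignments against 1219 to 1856 in the other mice, and their summed CPM of 6 adipocyte markers was 3188, 6248 and 2971 against 275 to 2443 in vehicle-treated females. The summed CPM of 5 hepatocyte markers was between 956 and 2145 in F6, F10, M8, M9 and M12 and at most 269 in vehicle-treated females. In corticosterone-treated mice 4 of 5 erythrocyte markers were higher in each sex, and in males 2 of 4 fibroblast markers and 1 of 4 endothelial markers were lower. The summed CPM of 5 slow fiber markers ran from 1.125 to 3209 in vehicle-treated males and from 2.334 to 1633 in treated males. In females it ran from 9.215 to 3740 with vehicle and from 53.35 to 2191 with corticosterone. Among vehicle-treated mice it was 2553 and 3209 in M3 and M5, 3740 and 2306 in F3 and F5, and at most 96.2 in the others. The part of these marker differences in the results below was not tested. In bulk tissue, fewer cells of a type and less RNA per cell cannot be told apart.

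In vehicle-treated mice the 42 genes spanned a wide range of levels per length. On the TPM scale (reads per base of union exon length, scaled to 1 total in every mouse) Pink1, a kinase that marks damaged mitochondria, was the highest at 756 ± 87.8 TPM (SD, n = 12). Sqstm1, the receptor for ubiquitin-tagged cargo, followed at 441 ± 56.1 TPM. Map1lc3a and Bnip3, a receptor on the outer mitochondrial membrane, came next at 369 ± 66.8 and 224 ± 37.9 TPM. Pink1 lay above Sqstm1 in all of these mice, with 623 TPM in its lowest mouse and 544 TPM in the highest mouse of Sqstm1. The ranges of Sqstm1 and Map1lc3a overlapped. The lowest were Atg7, Uvrag and Pik3r4 at 3.55 ± 0.444, 3.72 ± 0.551 and 4.17 ± 0.619 TPM, and their ranges overlapped. With the length of the longest transcript in place of the union of exons, Atg4c was the lowest at 4.66 TPM, and Atg7, Uvrag and Pik3r4 stood at 5.10, 5.23 and 6.55 TPM, while the order of the highest 4 was kept. With either length, all 10 conjugation genes stood at order 19 or below among the 42 levels.

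**Figure D1:**
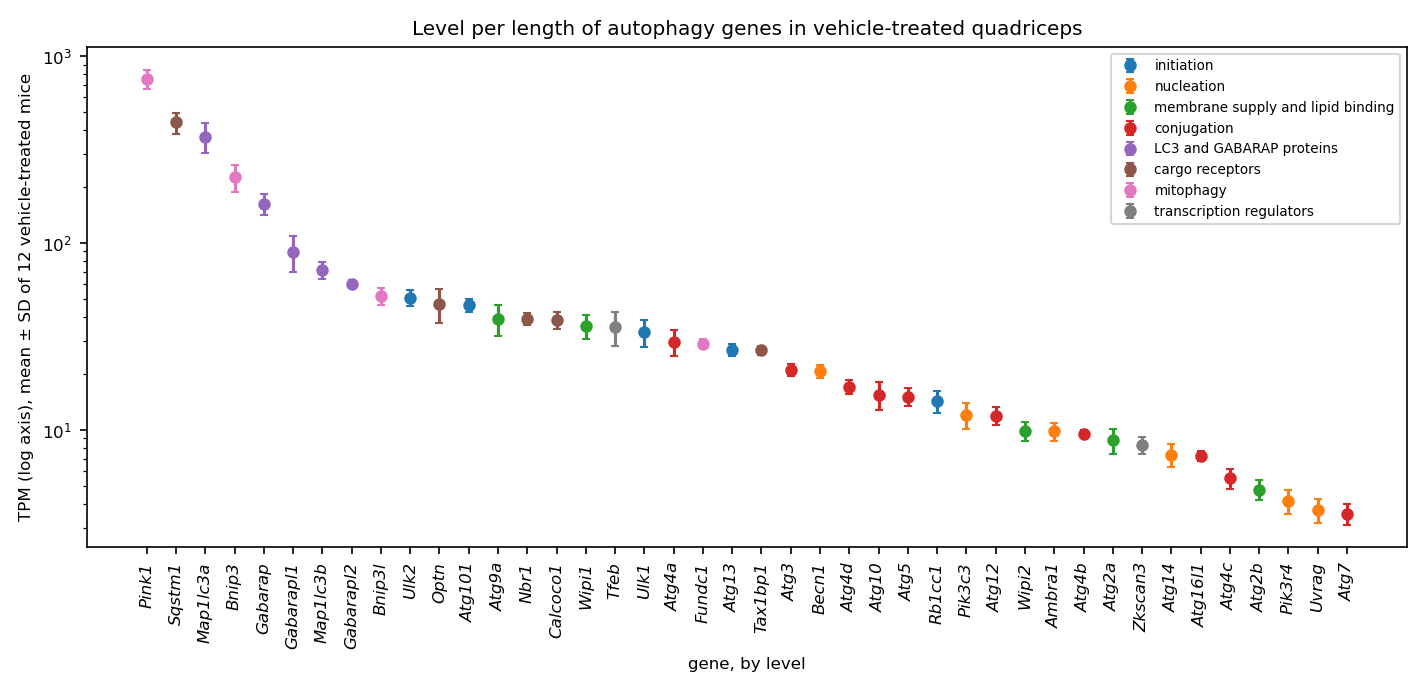
Mean TPM on a log axis, with SD bars over the 12 vehicle-treated mice, for each of the 42 genes in order of level and coloured by role. Pink1, Sqstm1 and Map1lc3a lie at 756, 441 and 369 TPM, and Atg7 lies at 3.55 TPM.

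Promoter sequences from RefSeq (GRCm38.p6, 250 bases before and 50 after each annotated start) were found for 34 of the 42 genes. Those of Uvrag and Fundc1 are shown because these genes passed the test in both sexes, and the most upstream of 3 listed starts of Tfeb is shown because its response differed between the sexes. Map1lc3a, Becn1, Pik3c3, Rb1cc1, Atg12, Atg16l1, Bnip3l and Zkscan3 had no entry. Capitals mark a GC box (GGGCGG or its reverse complement) or a CCAAT box (CCAAT or its reverse complement), and only the 250 bases before the start are printed, in the direction of transcription.
Uvrag, chr7:99141145-99141394, minus strand: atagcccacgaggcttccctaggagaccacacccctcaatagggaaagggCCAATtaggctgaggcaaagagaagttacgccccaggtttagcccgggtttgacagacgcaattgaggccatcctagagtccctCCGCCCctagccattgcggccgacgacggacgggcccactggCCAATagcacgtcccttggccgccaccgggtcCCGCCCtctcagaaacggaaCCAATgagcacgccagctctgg
Tfeb, chr17:47736787-47737036, plus strand: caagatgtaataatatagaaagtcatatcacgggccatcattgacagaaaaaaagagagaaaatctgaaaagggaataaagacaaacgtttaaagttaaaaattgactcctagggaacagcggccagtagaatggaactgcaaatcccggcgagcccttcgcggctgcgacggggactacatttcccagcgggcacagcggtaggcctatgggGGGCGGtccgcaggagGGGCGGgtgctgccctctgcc
Fundc1, chrX:17572008-17572257, minus strand: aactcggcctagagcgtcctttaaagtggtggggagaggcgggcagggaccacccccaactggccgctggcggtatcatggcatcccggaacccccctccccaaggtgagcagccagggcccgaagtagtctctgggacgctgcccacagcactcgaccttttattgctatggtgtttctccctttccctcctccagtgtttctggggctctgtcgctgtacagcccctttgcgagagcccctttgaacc
The Uvrag window held 2 GC boxes and 3 CCAAT boxes, the Tfeb window held 2 GC boxes, and the Fundc1 window held neither. The Fundc1 window lies inside the gene as GENCODE M21 draws it (chrX:17556564-17572325), so the annotations place its start differently.

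Over the whole window and both strands, 24 of the 34 promoters (70.6%) held a GC box, as did 38.2% of the 27025 genes with a promoter entry. A CCAAT box was held by 9 of the 34 (26.5%), against 41.1% of all genes. The palindromic E-box CACGTG was held by 5 of the 34 (14.7%), those of Atg3, Atg5, Atg7, Atg14 and Bnip3, against 8.09% of all genes. The longer CLEAR element TCACGTGA, which contains that E-box and is known as a site read by Tfeb, was held by Atg3 only, against 1.13% of all genes. It is shown with its surroundings, the element in capitals, on the plus strand of chr16:45158746-45158775.
Atg3: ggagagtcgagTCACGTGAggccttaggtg
The FOXO letters GTAAACA (4.05% of all genes) and the palindromic glucocorticoid response element (0.537% of all genes) were in none of the 34 windows, which says only that these letters are not there. Atg3 itself, the enzyme that transfers LC3 to lipid, was not past the test, with a male log2 fold change of -0.04 (SE 0.06) and a female one of -0.19 (SE 0.06, edgeR adjusted p = 0.0324).

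Corticosterone was compared with vehicle within each sex. In males 15 of the 42 genes passed the test (adjusted p below 0.01, edgeR quasi-likelihood test with Benjamini-Hochberg adjustment over all 13049 genes), or 35.7%, while 26.3% of all genes tested did. Of these 15, 13 rose (31.0% of the 42, against 13.2% of all genes) and 2 fell (4.76%, against 13.1%). The median log2 fold change of the 42 genes was 0.20 in males and that of all genes was -0.02. Of the 42, 34 were above 0, beside 48.1% of all genes. In females 3 of the 42 passed (7.14%, against 13.4% of all genes), 2 higher (against 7.40%) and 1 lower (against 6.0%). The female median was 0.05, beside 0.04 over all genes, and 25 of the 42 were above 0, beside 54.7% of all genes. Uvrag, Map1lc3a and Fundc1 passed in both sexes, each in the same direction, and 27 genes passed in neither. At an adjusted p below 0.05, 23 members passed in males and 9 in females, where 39.8% and 26.7% of all genes did, and 2 differed between vehicle groups, where 2.37% of all genes did. Without F2, F6 and F10, which leaves F4 and F8 as the treated females, no member passed in females (7 at an unadjusted p below 0.05), and over all genes 130 passed in place of 1748. In that fit 17 members passed in males, where 28.3% of all genes did. Without F6, F10, M8, M9 and M12, 11 passed in males and 2 in females, where 18.6% and 3.54% of all genes did.

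The CPM of treated and vehicle-treated males did not overlap for 12 members that were higher and for Wipi1 and Fundc1, which were lower, and 10.8% and 11.1% of all genes tested had such groups. In females this held for Atg13, Uvrag, Atg7 and Map1lc3a, which were higher, and for Fundc1, which was lower, beside 3.38% and 4.34% of all genes. The plot of fold changes by role shows the spread among groups of genes.

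**Figure D2:**
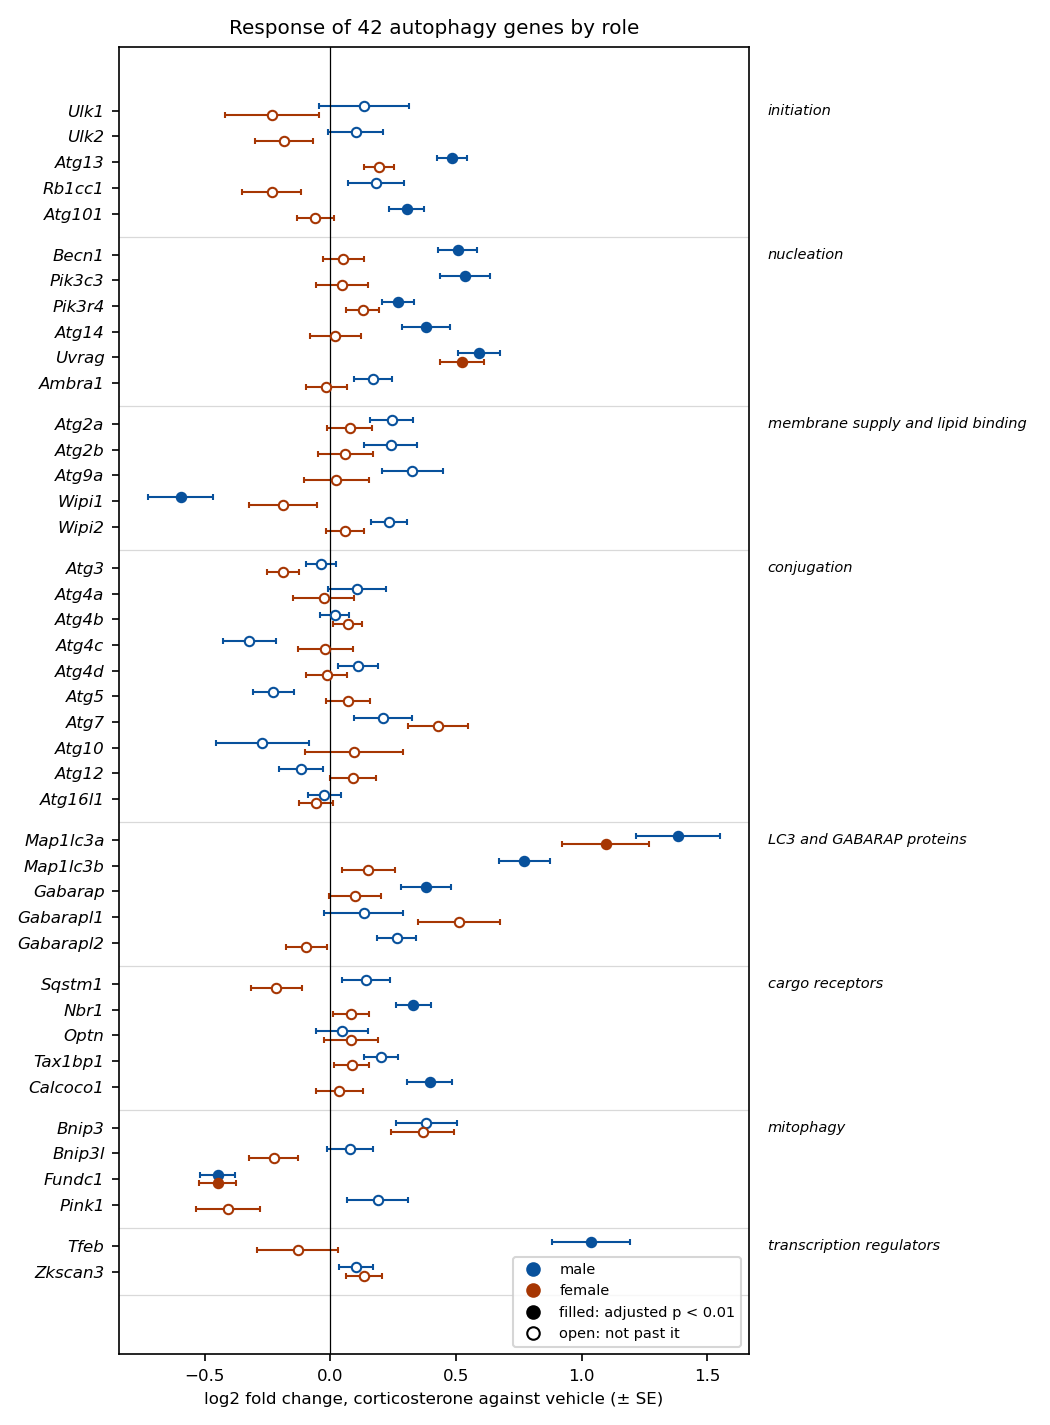
Log2 fold change (corticosterone against vehicle, ± SE) of each of the 42 genes in males (blue) and females (orange), grouped by role, with filled points for adjusted p below 0.01. In males 5 of 6 nucleation genes are filled to the right of 0 and none of the 10 conjugation genes is filled, and Map1lc3a lies farthest right at 1.38.

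The initiation genes encode the ULK kinase complex, which receives nutrient and energy signals. In males 2 of the 5 rose, and in females none passed. Atg13, an adaptor of this complex, had 43.0, 47.1 and 50.4 CPM in vehicle-treated males and 61.1, 64.9 and 74.4 CPM in corticosterone-treated males. In vehicle-treated females Atg13 was at 42.5, 44.0 and 47.1 CPM, and in treated females it was at 49.6, 56.1, 51.4, 49.0 and 48.6 CPM. Treated mice lay above vehicle-treated mice in each sex, with no overlap. In males the log2 fold change was 0.48 (SE 0.06, edgeR adjusted p = 1.71e-06), and in females it was 0.19 (SE 0.06, adjusted p = 0.0214), which missed the threshold.

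Atg101, the partner that stabilises Atg13, was at 27.4, 29.6 and 32.9 CPM in vehicle-treated males and at 34.3, 36.9 and 38.7 CPM in treated males. Vehicle-treated females had 25.6, 29.1 and 32.8 CPM, and treated females had 27.4, 25.2, 30.3, 30.7 and 24.8 CPM. The male groups did not overlap, whereas 3 of the 5 treated females lay below the vehicle mean. Males had a log2 fold change of 0.30 (SE 0.07, edgeR adjusted p = 0.0016) and females one of -0.06 (SE 0.07, adjusted p = 0.582). The kinase genes Ulk1 and Ulk2 and the scaffold Rb1cc1 had log2 fold changes of 0.13, 0.10 and 0.18 in males and -0.23, -0.19 and -0.23 in females, and none passed. F4 decided the female value of Ulk1. It had 125 CPM of Ulk1 and the other treated females had 52.1 to 64.0 CPM. Without F4 the log2 fold change was -0.54 (edgeR adjusted p = 0.00601).

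The nucleation genes encode the complex around the lipid kinase Pik3c3, which marks the membrane from which the autophagosome grows. In males 5 of the 6 rose, and their CPM did not overlap those of vehicle-treated males for 4. Becn1, the scaffold of the complex, rose by a log2 fold change of 0.51 (SE 0.08, edgeR adjusted p = 3.27e-05). Pik3r4, its regulatory subunit, and Atg14, which directs the complex to autophagosome sites, rose by 0.27 (SE 0.06, adjusted p = 0.00199) and 0.38 (SE 0.10, adjusted p = 0.00353). Without M8 the call of Atg14 was lost, and without F6, F10, M8, M9 and M12, the mice with the most hepatocyte marker RNA, the calls of Pik3r4 and Atg14 were lost. Ambra1, a positive regulator of the complex, had 0.17 (SE 0.08, adjusted p = 0.0782).

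Pik3c3 was at 16.4, 19.6 and 21.6 CPM in vehicle-treated males and at 24.0, 26.7 and 33.1 CPM in treated males. It was at 18.4, 22.7 and 27.8 CPM in vehicle-treated females and at 24.2, 25.9, 25.8, 20.8 and 21.5 CPM in treated females. All 6 treated males lay above all vehicle-treated males, and all 5 treated females lay within the range of vehicle-treated females. Pik3c3 rose in males by 0.54 on the log2 scale (SE 0.10, edgeR adjusted p = 0.000231), and its female value was 0.05 (SE 0.10, 95% interval -0.16 to 0.25).

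Uvrag is the subunit that takes the place of Atg14 in the form of the complex that acts on endosomes and on autophagosome maturation. Its levels were 14.1, 14.7 and 15.9 CPM in vehicle-treated males and 18.8, 22.6 and 26.04 CPM in treated males. They were 9.74, 11.7 and 13.1 CPM in vehicle-treated females and 16.2, 16.15, 19.3, 15.1 and 16.9 CPM in treated females. Treated mice lay above vehicle-treated mice in both sexes without overlap, and vehicle-treated males lay above vehicle-treated females without overlap. The log2 fold change was 0.59 in males (SE 0.08, edgeR adjusted p = 1.15e-05) and 0.53 in females (SE 0.09, adjusted p = 0.000236). The male minus female difference in response was 0.07 (95% interval -0.17 to 0.30). Vehicle-treated males and females differed by 0.35 (SE 0.08, edgeR adjusted p = 0.0244). The female call was lost without F2, F6 and F10 and without F6, F10, M8, M9 and M12, with an adjusted p of at most 0.048 over all alternatives tried, and its log2 fold change stayed between 0.42 and 0.57.

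**Figure D3:**
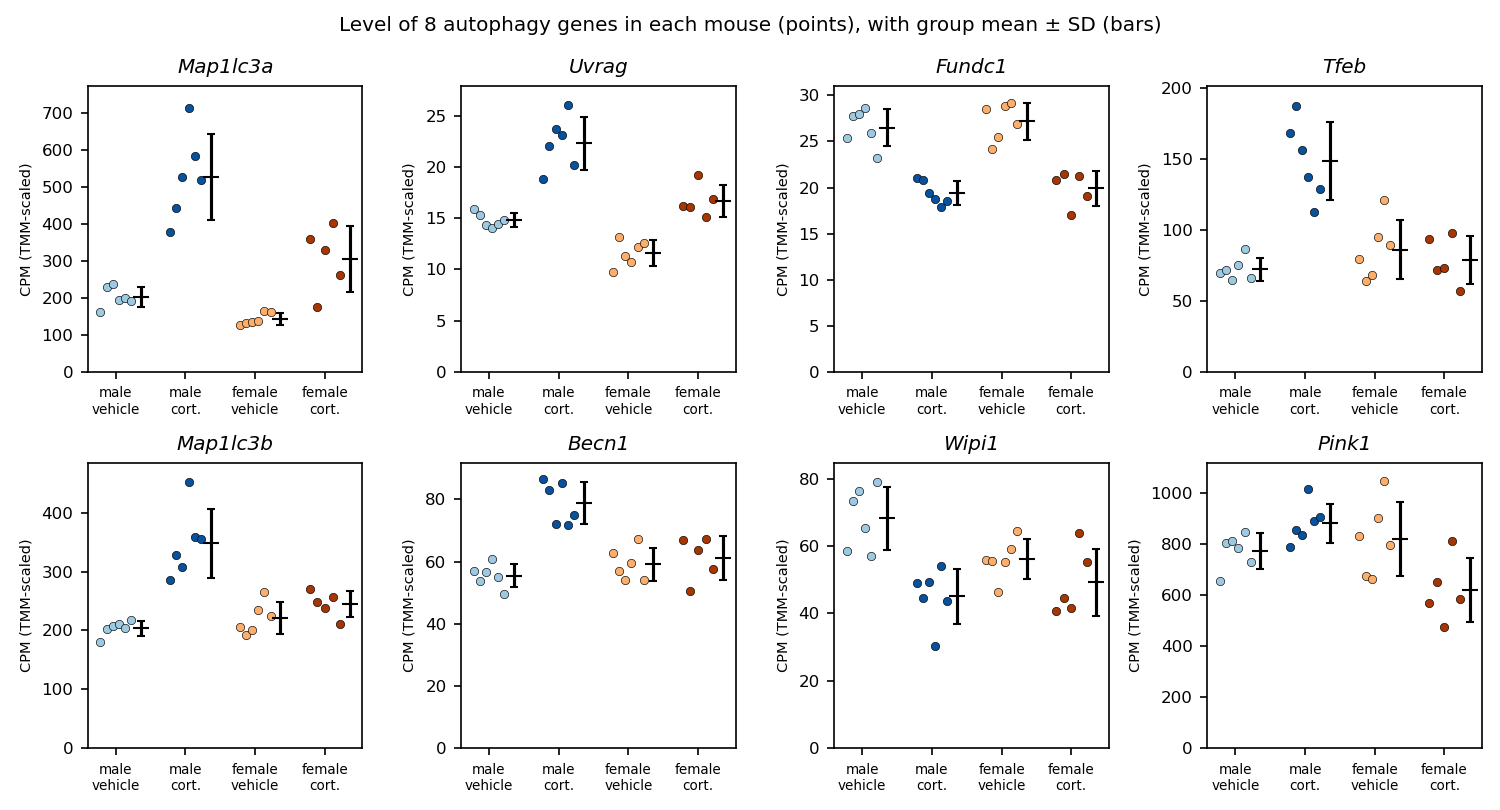
CPM of 8 of the 42 genes in each mouse (points) by sex and treatment, with group mean ± SD (bars) and axes that start at 0. Map1lc3a, Uvrag and Fundc1 separate treated from vehicle-treated mice in both sexes, and Tfeb, Map1lc3b, Becn1 and Wipi1 do so in males.

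Of the 5 genes for membrane supply and lipid binding, 1 passed in males, and it fell. Wipi1, which binds the lipid made by the nucleation complex, was at 57.0, 69.3 and 79.1 CPM in vehicle-treated males and at 30.2, 46.8 and 54.0 CPM in treated males. It was at 46.4, 55.6 and 64.6 CPM in vehicle-treated females and at 40.6, 44.7, 41.6, 63.9 and 55.2 CPM in treated females. Every treated male lay below every vehicle-treated male, and the female groups overlapped. Its log2 fold change was -0.60 in males (SE 0.13, edgeR adjusted p = 0.00108) and -0.19 in females (SE 0.14, adjusted p = 0.326).

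Its relative Wipi2, which recruits the conjugation machinery, was at 34.9 to 41.7 CPM in vehicle-treated and 41.9 to 50.4 CPM in treated males. These groups did not overlap, and the log2 fold change of 0.23 (SE 0.07, edgeR adjusted p = 0.014) just missed the threshold. The lipid transfer genes Atg2a and Atg2b and the scramblase gene Atg9a had male values of 0.24, 0.24 and 0.33 with adjusted p of 0.029, 0.0731 and 0.0387 (edgeR). Of the exon bases of Atg9a, 31.8% are shared on the same strand with the gene model Gm29253, so its counts are uncertain. No gene of this role passed in females.

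None of the 10 conjugation genes passed in either sex, by the edgeR test at adjusted p below 0.01, and 2 in each sex had an unadjusted p below 0.05. These genes encode the enzymes that process LC3 (Atg4a to Atg4d), activate it (Atg7) and transfer it (Atg3), and the complex of Atg5, Atg12 and Atg16l1 that directs it, with Atg10 as the enzyme that joins Atg12 to Atg5. Their log2 fold changes ran from -0.32 to 0.21 in males, with a median of -0.03, and from -0.19 to 0.43 in females, with a median of 0.03. The values with the smallest adjusted p were those of Atg7 in females and Atg4c in males. Atg7 was at 8.76 to 10.1 CPM in vehicle-treated females and at 11.9, 11.6, 17.3, 11.1 and 11.3 CPM in treated females. The groups did not overlap, with a log2 fold change of 0.43 (SE 0.12, edgeR adjusted p = 0.0114), and DESeq2 and limma-voom called it. Atg4c was at 6.53 to 9.24 CPM in vehicle-treated and 5.34 to 6.56 CPM in treated males, which overlapped, with a log2 fold change of -0.32 (SE 0.11, edgeR adjusted p = 0.0184). Atg5 in males had -0.23 (SE 0.08, adjusted p = 0.0345), and Atg12, Atg16l1, Atg4a, Atg4b, Atg4d and Atg10 had male values between -0.27 and 0.11.

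The LC3 and GABARAP genes encode the proteins that are attached to the autophagosome membrane. In males 3 of the 5 rose, and in females 1 did. Map1lc3a was at 160.4, 197 and 236 CPM in vehicle-treated males and at 378, 522 and 714 CPM in treated males. In vehicle-treated females it was at 127, 136 and 165 CPM, and in treated females it was at 360.1, 175, 329, 403 and 261 CPM. No treated mouse overlapped the vehicle-treated mice of its sex, and F4 was the treated female closest to them. In log2 terms it rose by 1.38 in males (SE 0.17, edgeR adjusted p = 2.01e-06), or 2.61-fold, and 1.10 in females (SE 0.17, adjusted p = 0.000153), or 2.14-fold. The male minus female difference was 0.29 (95% interval -0.18 to 0.75). Without F2, F6 and F10 the female value missed the threshold, with an adjusted p of 0.0178, and its log2 fold change was between 0.98 and 1.24 in all alternatives tried.

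Map1lc3b was at 180.2, 205 and 218 CPM in vehicle-treated males and at 285, 341 and 453 CPM in treated males. It was at 192, 216 and 265 CPM in vehicle-treated females and at 270.3, 249, 239, 257 and 210.5 CPM in treated females. The male groups were apart, and the female groups overlapped, with 4 of the 5 treated females above the vehicle mean. The log2 fold change was 0.77 in males (SE 0.10, edgeR adjusted p = 4.99e-06) and 0.15 in females (SE 0.11, 95% interval -0.06 to 0.36). Their difference of 0.62 (SE 0.15, edgeR adjusted p = 0.0167) missed the threshold and passed it with DESeq2 (adjusted p = 0.000836), without F3 and without F8. It did not pass with limma-voom. In this comparison DESeq2 called 6.87% and limma-voom 5.31% of all genes. The fits without F3 and without F8 called 302 and 893 genes, in place of 90.

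Gabarap rose in males by a log2 fold change of 0.38 (SE 0.10, edgeR adjusted p = 0.00419). This call was lost when M7, M8, M9 or M10 was left out, with no gene filter, and without F6, F10, M8, M9 and M12. Gabarapl2 was at 50.9 to 57.2 CPM in vehicle-treated and 61.3 to 71.9 CPM in treated males, which did not overlap. Its log2 fold change of 0.26 (SE 0.08) had an edgeR adjusted p of 0.01003, just outside the threshold. Gabarapl1 was at 57.9, 68.2 and 97.6 CPM in vehicle-treated females and at 95.1, 127, 107, 77.3 and 104 CPM in treated females. The female groups overlapped through the vehicle-treated mouse F3, and the log2 fold change was 0.51 (SE 0.16, edgeR adjusted p = 0.0249), or 0.63 without F3 (adjusted p = 0.0066).

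On the TPM scale Map1lc3a made up 53.4% ± 2.63 (SD, n = 6) of the summed level of the 5 genes in vehicle-treated males and 69.4% ± 2.09 in treated males. In females the share was 44.1% ± 3.31 (n = 6) with vehicle and 58.7% ± 8.51 (n = 5) with corticosterone. The male shares ran from 49.0% to 55.7% and from 66.2% to 71.9%, and the female shares from 40.5% to 49.2% and from 44.5% to 66.4%. The TPM ratio of Map1lc3a to Map1lc3b was 6.31 ± 0.756 and 9.60 ± 0.982 in vehicle-treated and treated males. In females it was 4.14 ± 0.309 and 7.93 ± 2.07. These shares are a description and were not tested. With the other length used (the longest transcript), Map1lc3b in vehicle-treated mice stood at 104.5 TPM in place of 71.7 TPM, so levels between these genes depend on the length chosen.

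Of the 5 cargo receptor genes, 2 rose in males and none passed in females. Nbr1, a receptor for ubiquitin-tagged cargo, was at 96.9, 99.5 and 118 CPM in vehicle-treated males and at 125, 127 and 139 CPM in treated males. It was at 99.4, 108 and 125 CPM in vehicle-treated females and at 118, 123, 115, 117 and 104 CPM in treated females. The male groups were apart and the female groups overlapped. Nbr1 rose in males by 0.33 on the log2 scale (SE 0.07, edgeR adjusted p = 0.000663), beside 0.08 in females (SE 0.07, adjusted p = 0.418).

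Calcoco1, a receptor for endoplasmic reticulum, was at 75.9, 87.2 and 97.5 CPM in vehicle-treated males and at 96.3, 114 and 126 CPM in treated males. It was at 78.9, 86.2 and 104 CPM in vehicle-treated females and at 89.3, 112, 85.9, 88.0 and 77.0 CPM in treated females. The male groups overlapped slightly, although all 6 treated males lay above the vehicle mean. Its log2 fold change was 0.40 in males (SE 0.09, edgeR adjusted p = 0.00134) and 0.04 in females (SE 0.09, adjusted p = 0.81). Without F6, F10, M8, M9 and M12 the male value had an adjusted p of 0.014.

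Optn, a receptor used in mitophagy, differed between the sexes among vehicle-treated mice and did not pass with corticosterone. It was at 65.2, 83.2 and 96.5 CPM in vehicle-treated males and at 53.4, 55.6 and 60.6 CPM in vehicle-treated females. Treated males had 72.5, 86.0 and 104 CPM, and treated females had 67.2, 47.6, 58.5, 64.6 and 60.2 CPM. Vehicle-treated males lay above vehicle-treated females without overlap. That difference was 0.56 on the log2 scale (SE 0.10, edgeR adjusted p = 0.0029), and Optn was the only member to pass this comparison, in which 0.958% of all genes passed (0.690% higher and 0.268% lower in males). The call was lost when F5, M3 or M5 was left out. With corticosterone its log2 fold change was 0.05 in males (95% interval -0.15 to 0.25) and 0.08 in females (-0.13 to 0.29). Sqstm1 had 0.14 in males (SE 0.10, adjusted p = 0.255) and -0.22 in females (SE 0.10, adjusted p = 0.122), and Tax1bp1 had 0.20 in males (SE 0.07, adjusted p = 0.0209) and 0.08 in females (SE 0.07, adjusted p = 0.4).

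Of the 4 mitophagy genes, Fundc1 fell in both sexes. Fundc1, a receptor in the outer mitochondrial membrane, was at 23.2, 26.9 and 28.6 CPM in vehicle-treated males and at 17.9, 19.1 and 21.1 CPM in treated males. It was at 24.2, 27.7 and 29.2 CPM in vehicle-treated females and at 20.8, 21.5, 16.97, 21.3 and 19.1 CPM in treated females. All treated mice lay below all vehicle-treated mice of their sex. Fundc1 had a log2 fold change of -0.45 in males (SE 0.07, edgeR adjusted p = 3.97e-05) and the same value in females (SE 0.07, adjusted p = 0.000221), and the difference between the sexes had a 95% interval of -0.21 to 0.21. Without F2, F6 and F10 the female value had an adjusted p of 0.0365, and over all alternatives it ran from -0.49 to -0.36.

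Bnip3 was at 181, 196 and 272 CPM in vehicle-treated males and at 240.4, 276 and 336 CPM in treated males. It was at 155, 185 and 223 CPM in vehicle-treated females and at 254, 268, 247, 224 and 213 CPM in treated females. The groups overlapped in both sexes, although all treated mice lay above the vehicle mean of their sex. The log2 fold changes of 0.38 in males (SE 0.12, edgeR adjusted p = 0.016) and 0.37 in females (SE 0.13, adjusted p = 0.0365) missed the threshold. DESeq2 and limma-voom called the male value.

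Pink1 was at 656, 796 and 850 CPM in vehicle-treated males and at 790.4, 873 and 1016 CPM in treated males. It was at 665, 816 and 1049 CPM in vehicle-treated females and at 572, 651, 475, 814 and 584 CPM in treated females. All 6 treated males lay above the male vehicle mean and all 5 treated females lay below the female vehicle mean, and the groups overlapped in both sexes. The log2 fold change was 0.19 in males (SE 0.12, edgeR adjusted p = 0.223) and -0.41 in females (SE 0.13, adjusted p = 0.0221). The difference of 0.60 (SE 0.18, edgeR adjusted p = 0.0336) missed the threshold. Without F8 the female value was -0.53 and the difference was 0.71, and both passed, as they did with DESeq2 and limma-voom. F8 had the highest Pink1 level of the treated females, and 893 of all genes passed in the difference without it, in place of 90. The lowest levels were those of F6, F2 and F10, and without these mice neither Pink1 value passed. Of the exon bases of Pink1, 6.70% are shared on the same strand with other gene models. Bnip3l, the relative of Bnip3 that clears mitochondria from maturing red cells, had 0.08 in males (SE 0.09) and -0.22 in females (SE 0.10), and neither passed.

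Tfeb, the transcription factor that drives lysosomal and autophagy genes, was at 64.4, 70.4 and 86.5 CPM in vehicle-treated males and at 112, 147 and 187 CPM in treated males. It was at 63.6, 84.3 and 121 CPM in vehicle-treated females and at 93.3, 71.8, 73.3, 97.4 and 56.6 CPM in treated females. The male groups did not overlap, while the female groups overlapped and 3 of the 5 treated females lay below the vehicle mean. Its log2 fold change was 1.04 in males (SE 0.16, edgeR adjusted p = 2.33e-05), or 2.06-fold, and -0.13 in females (SE 0.16, adjusted p = 0.588). Zkscan3, described as a repressor of autophagy genes, had 0.10 in males (SE 0.07) and 0.13 in females (SE 0.07), and neither passed.

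**Figure D4:**
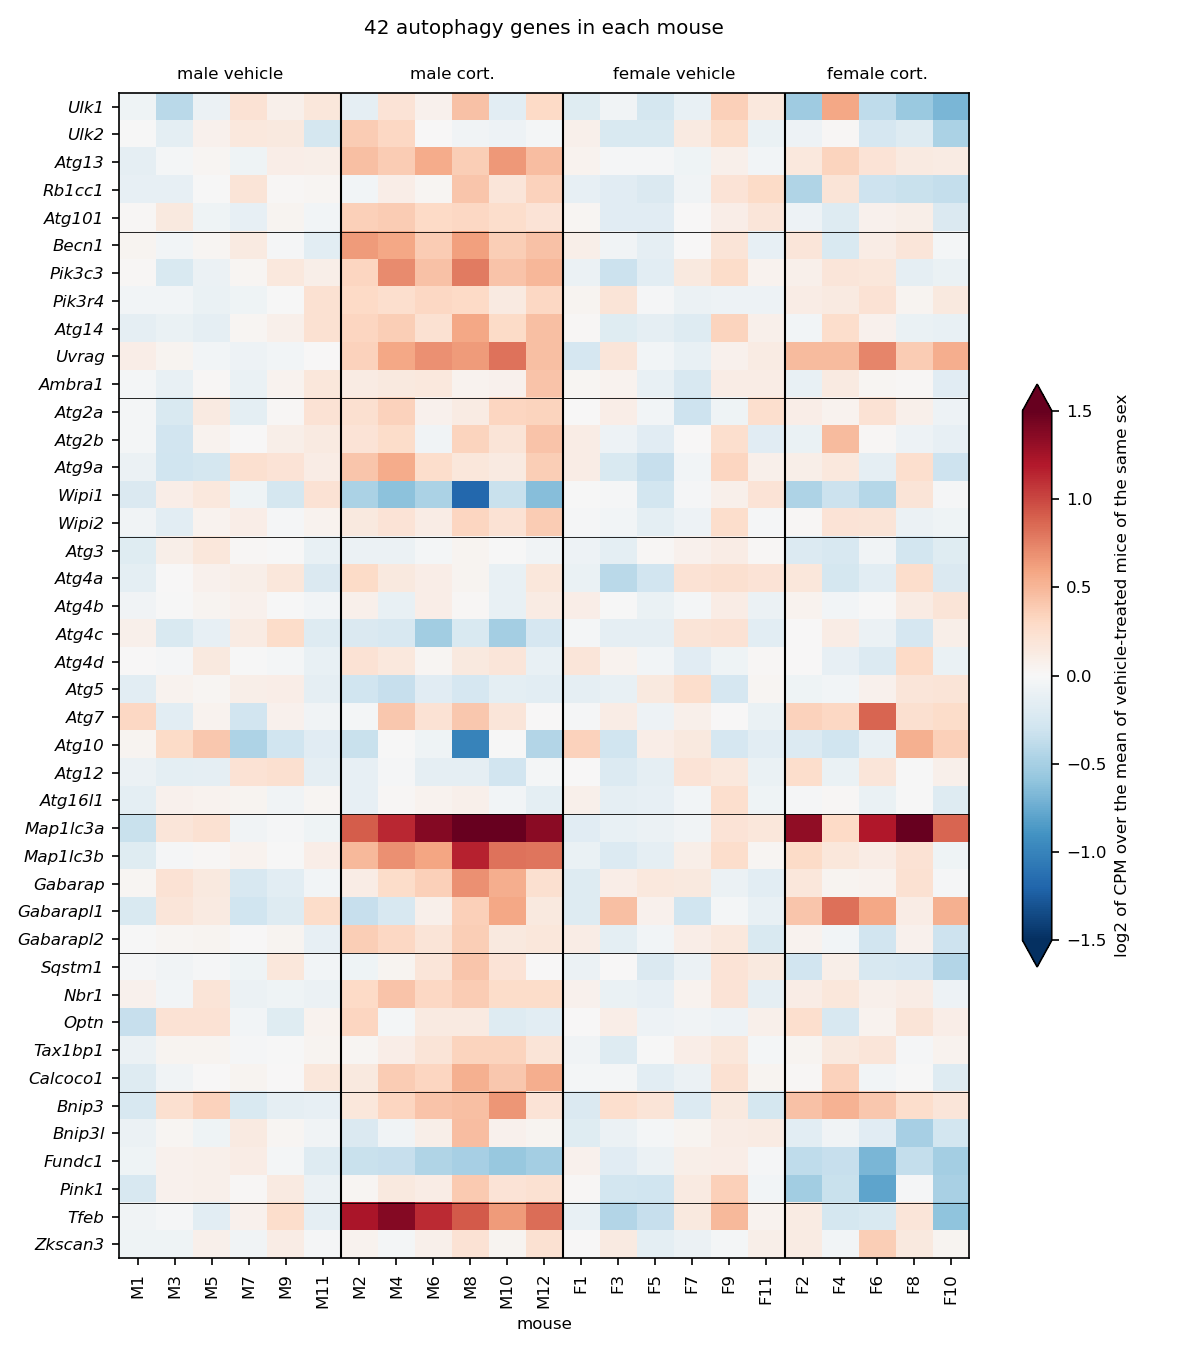
Log2 of CPM over the mean of vehicle-treated mice of the same sex, for the 42 genes (rows, by role) in each of the 23 mice (columns, by group), with colours limited to 1.5 on either side of 0. Map1lc3a is above 0 in all treated mice and least so in F4, Fundc1 is below 0 in all treated mice, and Tfeb is above 0 in all 6 treated males.

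The difference between the sexes in the response was tested as the male minus the female log2 fold change. Tfeb was the only member to pass, where 0.690% of all genes tested passed (0.368% higher and 0.322% lower in males). Its difference was 1.17 (SE 0.22, 95% interval 0.73 to 1.61, edgeR adjusted p = 0.00805). This call was lost in 17 of the 23 fits that left out 1 mouse, and over all alternatives the difference ran from 1.05 to 1.26 with adjusted p up to 0.0644. Of the 42 differences 32 were above 0, beside 45.8% over all genes, with a median of 0.18 beside -0.05 over all genes. An edgeR adjusted p below 0.05 was held by 8 of the 42, beside 12.6% of all genes. Among the 8 were Pink1 and Gabarapl2 (0.36, SE 0.11, adjusted p = 0.0416). The 11 members that rose in males and did not pass in females were picked by the same fit, which favours a difference above 0. As a description, 9 of them had a female value of the same sign and 6 had an adjusted p below 0.05 for the difference. Besides Tfeb and Map1lc3b these were Becn1 at 0.46 (SE 0.11, adjusted p = 0.0186), Atg101 at 0.37 (SE 0.10, adjusted p = 0.0273), Atg13 at 0.29 (SE 0.08, adjusted p = 0.0316) and Pik3c3 at 0.49 (SE 0.14, adjusted p = 0.0331). The lowest differences were those of Wipi1 at -0.41 (SE 0.19, adjusted p = 0.14) and Gabarapl1 at -0.38 (SE 0.23, adjusted p = 0.252). For 10 of the 11 the difference between the sexes did not pass the threshold. With DESeq2, where 6.87% of all genes passed, the differences of Becn1, Atg101 and Atg13 passed it and that of Pik3c3 did not. With limma-voom, where 5.31% of all genes passed, none of these differences did. Without F8, where 893 of all genes passed in place of 90, those of Becn1 and Atg101 passed with edgeR.

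**Figure D5:**
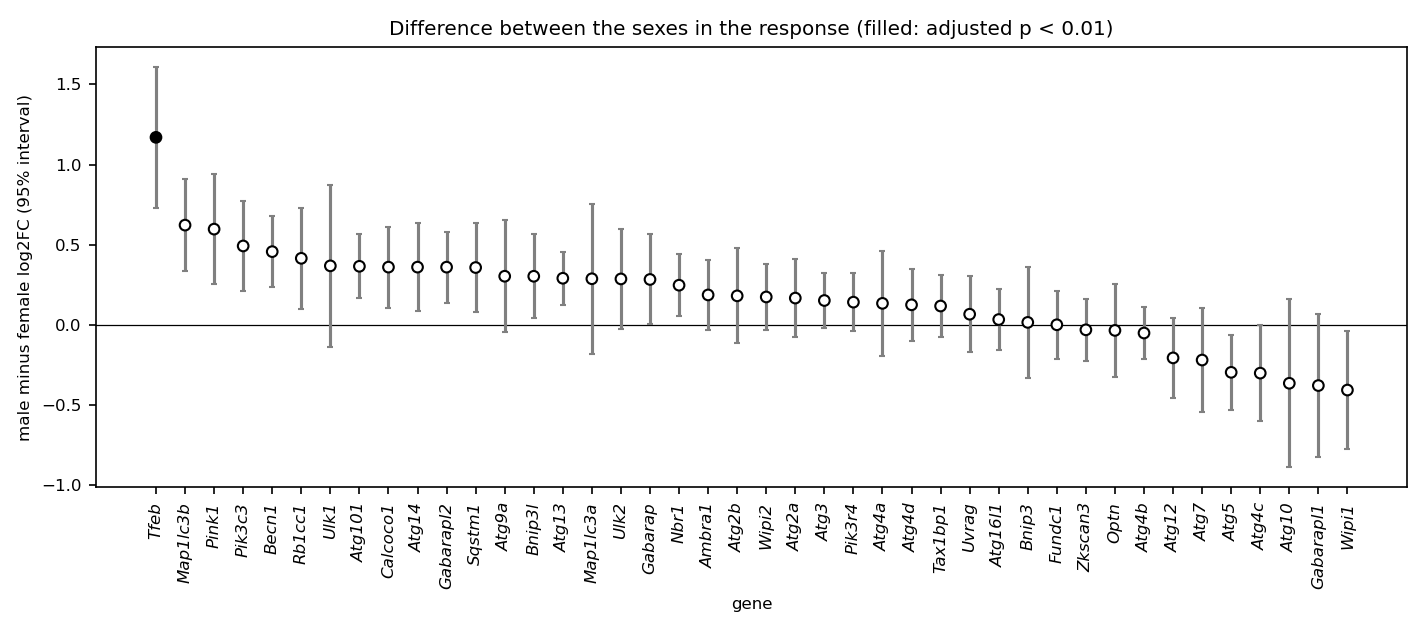
Male minus female log2 fold change with its 95% interval for each of the 42 genes, in order, with a filled point for adjusted p below 0.01. Tfeb alone is filled, at 1.17, and 32 of the 42 points lie above 0, beside 45.8% of all genes tested.

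The other genes of the pathway were counted from 4 fixed lists, to be read against the 26.3% of all genes that passed in males (13.2% higher and 13.1% lower) and the 13.4% in females (7.40% higher and 6.0% lower). The shares called were 62.5%, 28.6%, 26.7% and 50% in males and 12.5%, 14.3%, 13.3% and 33.3% in females, in the order in which the lists follow, so that those of the fusion and receptor lists lay near the share of all genes in both sexes. Of 8 further core genes, 2 rose and 3 fell in males and 1 rose in females. Vmp1, which acts in autophagosome formation at the endoplasmic reticulum, rose by 0.60 in males (SE 0.10, edgeR adjusted p = 9.02e-05) and 0.49 in females (SE 0.11, adjusted p = 0.00202). Tmem41b, which acts with Vmp1, fell by 0.46 in males (SE 0.10, adjusted p = 0.000745). The others that passed in males were Nrbf2 at 0.56, Wdr45b at -0.32 and Atg16l2 at -0.34. Of 14 genes for fusion with lysosomes, 2 rose and 2 fell in males, and 1 rose and 1 fell in females. Rab7, the small GTPase of late endosomes, was at 271 to 304 CPM in vehicle-treated and 421 to 653 CPM in treated males, with log2 fold changes of 0.92 in males (SE 0.14, edgeR adjusted p = 2.09e-05) and 0.79 in females (SE 0.14, adjusted p = 0.000443). Stx17, the fusion protein on the closed autophagosome, was at 34.1 to 40.5 CPM in vehicle-treated and 15.2 to 25.4 CPM in treated males. It fell by 0.77 on the log2 scale in males (SE 0.11, edgeR adjusted p = 2.04e-05) and by 0.67 in females (SE 0.12, adjusted p = 0.000454). Vps16, of the tethering complex, and Ykt6, another fusion protein, had male values of 0.39 and -0.23 and passed.

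Of 16 further receptor and mitophagy genes, 15 were tested (Calcoco2 was too low), and 3 rose and 1 fell in males and 2 rose in females. Retreg1, a receptor for endoplasmic reticulum, rose by 0.94 in males (SE 0.21, edgeR adjusted p = 0.00128), and Tex264, another such receptor, fell by 0.23 (SE 0.07, adjusted p = 0.00804). Fkbp8 and Bcl2l13, receptors on mitochondria, rose by 0.32 and 0.29 in males. Rtn3, also a receptor for endoplasmic reticulum, was at 89.9, 73.7, 130.3, 60.4 and 98.3 CPM in the 5 treated females and at 55.6 to 65.5 CPM in vehicle-treated females. Its levels were highest in F6, F10 and F2, the females with the most adipocyte marker RNA, and its female log2 fold change of 0.62 (SE 0.13, edgeR adjusted p = 0.00139) was 0.18 without these 3 mice (adjusted p = 0.389). The other gene that rose in females was Ncoa4, the receptor for ferritin, at 0.40 (SE 0.08, adjusted p = 0.0017), and it was 0.17 without them (adjusted p = 0.347). Of 12 upstream kinases and transcription regulators, 5 rose and 1 fell in males and 4 rose in females. Foxo1, a transcription factor of the fasting and atrophy response, was at 15.4 to 19.6 CPM in vehicle-treated and 97.7 to 119 CPM in treated males. In treated females it was at 87.3, 20.7, 101, 62.2 and 53.6 CPM, beside 16.99 to 23.4 CPM in vehicle-treated females, so that F4 lay within the vehicle range. Its log2 fold changes were 2.66 in males (SE 0.23, edgeR adjusted p = 5.11e-08) and 1.70 in females (SE 0.23, adjusted p = 3.51e-05). Trp53inp2, which helps LC3 reach autophagosomes, fell by 0.58 on the log2 scale in males (SE 0.12, edgeR adjusted p = 0.000756). Mtor, Foxo4 and Trp53inp1 rose in males by 0.46, 0.56 and 1.39, and Mtor and Trp53inp1 also rose in females, by 0.26 and 1.35. Foxo3, which rose by 1.54 in males and 0.52 in females, was the only gene of the 4 lists to pass in the difference between the sexes, at 1.02 (SE 0.17, edgeR adjusted p = 0.00607), and it was also lower in vehicle-treated males than females, at -0.58 (SE 0.12, adjusted p = 0.00919). With the replicate number as a block both missed the threshold (edgeR adjusted p = 0.0154 and 0.051). Among these genes, calls close to the threshold changed when 1 mouse was left out. Of the 23 such fits, 15 lost the male call of Atg16l2, 13 that of Tex264, 6 that of Bcl2l13 and 2 that of Ykt6. In females 15 lost the call of Mtor, 4 that of Foxo3 and 1, without F6, that of Ncoa4. The sex difference of Foxo3 was lost in 9 of them and its vehicle difference in 14. Without F2, F6 and F10 the female calls of Vmp1, Rab7, Stx17, Foxo1, Foxo3, Mtor and Trp53inp1 were lost too.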

How the data were processed

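Total RNA of quadriceps from 23 mice, 1 library each, was enriched for mRNA and sequenced as stranded paired-end libraries. The authors aligned reads to mm10 and deposited raw counts per Ensembl gene, and the submitters' processing notes name STAR 2.7.3a and HTSeq 0.12.4. The 5 summary entries of each mouse (10.7% to 15.3% of its total) were left out of library sizes. Symbols and exon lengths came from GENCODE M21 and promoters from RefSeq.

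A gene was kept where 4 or more mice of any group had over 20 normalized counts, and was tested with edgeR 4.0.16 (TMM, quasi-likelihood, 1 mean per group, R 4.3.3), with Benjamini-Hochberg adjustment over 13049 genes and a threshold of 0.01. Intervals are 1.96 SE on either side. The fit was tested on simulated data in which 200 of the 13049 genes changed, in treated males only. That test does not cover the female calls or the sex difference. Alternatives were DESeq2 1.42.0, limma-voom 3.58.1 with quality weights, median-of-ratios scaling, filterByExpr, no filter, each sex alone, a replicate block, an adjusted p of 0.05, a log2 fold change beyond 1, each mouse left out and, chosen after seeing the data, leaving out F2, F6 and F10 or F6, F10, M8, M9 and M12. The GC and CCAAT boxes were also added after seeing the data.

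Values by mouse were given for members past the threshold in both sexes, in the sex difference or between vehicle groups, and for the 2 largest changes per role and sex among those past it. Of the other pathway lists, the largest rise and fall per sex were named. Members outside this rule with values by mouse (Atg7, Gabarapl1, Bnip3 and Pink1) were chosen after their values were seen, as were Nrbf2, Wdr45b, Atg16l2, Vps16, Ykt6, Fkbp8, Bcl2l13, Ncoa4, Mtor, Foxo3, Foxo4 and Trp53inp1. The members and lists were chosen with earlier results of these data known. Males and females share replicate numbers, and no label says that a number pairs the mice. Mice are separate animals, and counts per gene limit precision only through sampling, since every member had at least 107 counts in every mouse.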

Additional observations from a re-analysis of the deposited data

Results flagged for a closer look

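The response of Tfeb differed between the sexes by a male minus female log2 fold change of 1.17 (SE 0.22), and that of Foxo3 by 1.02 (SE 0.17), both by the edgeR interaction test with adjusted p of 0.00805 and 0.00607. Of 33 alternatives, 20 lost the call of Tfeb (17 of the 23 that left out 1 mouse, no gene filter, and both fits without several mice) and 12 lost that of Foxo3 (9 that left out 1 mouse, the replicate block, and both fits without several mice).

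Among 252 groups of mice (the 42 members and 21 pathway genes in 4 groups), 11 held a mouse far from the others of its group by Dixon's test. Chance gives this in about 1 in 20 groups, so the 11 are no more than chance would give, and they are listed as a description. F4 was high among treated females for Ulk1 (125 CPM), Rb1cc1 (95.02 CPM) and Atg2b (36.7 CPM), and F6 was high there for Atg7 (17.3 CPM). Among vehicle-treated males M11 was high for Pik3r4 (17.6 CPM) and low for Gabarapl2 (50.9 CPM), and M9 was high for Sqstm1 (725 CPM). Among treated males M10 was low for Pik3r4 (16.5 CPM) and M12 was high for Ambra1 (32.9 CPM). Among vehicle-treated females F9 was high for Wipi2 (51.6 CPM) and F7 was low for Mtor (33.1 CPM).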

How the results depend on the processing

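Of 50 called values in the 42 genes and the pathway lists, none changed direction under any alternative tried. Of the 148 uncalled values, 36 fits with other settings and 80 with 1 mouse left out changed sign. With a threshold of 0.05 the members called were 23 in males, 9 in females, 8 in the sex difference and 2 between vehicle groups. Over all genes the shares at 0.05 were 39.8%, 26.7%, 12.6% and 2.37%. With a log2 fold change beyond 1 they were 2, 1, 1 and 0 (beside 7.53%, 5.61%, 0.307% and 0.575% of all genes, and 9 members at an unadjusted p below 0.05 between vehicle groups). DESeq2 called 5 in females, 6 in the sex difference and 2 between vehicle groups, and limma-voom called 5 and 2 in the first pair, where DESeq2 called 18.8%, 6.87% and 2.18% of all genes and limma-voom 18.8% and 5.31%. With no filter 0 differed between the sexes (15 at an unadjusted p below 0.05). Without F2, F6 and F10 it was 0 in females (7 at an unadjusted p below 0.05) and 0 for the sex difference (10), and without F6, F10, M8, M9 and M12 it was 0 for the sex difference (8), with edgeR. Leaving out 1 mouse gave 13 to 17 in males, 3 to 5 in females, 0 to 5 for the sex difference and 0 to 1 between vehicle groups. The upper values of 5 were without F8, and 17 fits gave 0 for the sex difference. Over all genes the sex difference held 90 genes with edgeR, 896 with DESeq2, 693 with limma-voom and 10 with no filter, the vehicle comparison 125 and 284 with DESeq2, and females 1748 and, fitted alone, 561. Without F2, F6 and F10 the sex difference held 6 and females 130, and without F6, F10, M8, M9 and M12 it held 3 and females 462. With 1 mouse left out, the sex difference held 1 to 893 genes, the latter without F8, and females 1004 to 2359. Males held 2888 to 3643 genes in these fits and the vehicle comparison held 99 to 138. In these cases the cause was not tested, and some of these fits also had fewer mice or more genes. With the replicate block the sex difference held 1 member and the vehicle comparison 1. It changed the call of no member, whereas Foxo3 missed the threshold with it in the sex difference (edgeR adjusted p = 0.0154) and between vehicle groups (0.051), and within a sex no numbers are shared. Whether the numbers pair the mice is not given by the labels. Of 11 pairs, 8 had deviations from their group means that correlated over 0.1 (from -0.411 to 0.503), and 7 of 22 mice correlated best with the mouse of their own number among those of the other sex. Total gene counts were within 20904150 to 21984477, with TMM factors of 0.833 to 1.21, and the effect of depth on the calls was not tested.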
